A study of Drosophila melanogaster with 47 samples.

Results

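The 8 genes described here encode enzymes of fatty acid oxidation: whd, Mcad, Mtpalpha, yip2, wal, Etf-QO, Acox57D-p and Acox57D-d. They were chosen by symbol, and all 8 were found in each of the 3 count tables used, among 11964 genes in all. Each of the 8 passed the filter on low counts in every comparison, with between 489 and 33385 reads per library, so none was lost from any count below. A further 32 genes of acyl-CoA synthesis, the carnitine shuttle, both oxidation routes and their regulators were listed alongside them, and all 32 were tested.

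RNA was sequenced from midguts of adult female Drosophila melanogaster that were either mated, housed for 48 h with males, or unmated. There were 4 kinds of material, each with 4 mated and 4 unmated libraries: whole guts of esg-Gal4 flies, esg-positive progenitor cells sorted from esg-Gal4 guts, guts of Actin-Gal4 flies, and guts of flies labelled Actin-Gal4/ EcR RNAi. The esg-Gal4 driver is active in intestinal stem cells and their immediate daughters, and the Actin-Gal4 driver is active throughout the body. The Actin-Gal4 females, with and without the RNAi, were kept for 5 days at 29 °C before mating at 25 °C. Each library was a pool of 15 guts, or of 100 to 150 guts for sorted cells, so the spread between libraries is a spread between pools. No group reports on single flies or on an isolated mature cell type. A lower transcript level in such bulk material can come from fewer cells of a type or from less RNA per cell, and these cannot be told apart.

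Fatty acids are activated to acyl-CoA, carried into mitochondria as carnitine esters, and shortened there in a repeating cycle of oxidation, hydration, oxidation and thiolysis. The electrons of the first oxidation pass through the electron transfer flavoprotein to ubiquinone in the respiratory chain. Peroxisomes run a parallel cycle whose first enzyme is an acyl-CoA oxidase, which hands its electrons to oxygen. In the fly midgut, enterocytes absorb dietary lipid and store or export it, and mating is known to change gut size and lipid handling in females. The steroid hormone ecdysone acts through its receptor EcR, and the RNAi experiment addressed whether EcR is involved in what mating does to the gut.

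The genes fall into 4 steps of the pathway. The whd gene (withered; FBgn0261862; BDGP6.54 annotation, chromosome 2R, 10469473 to 10478567, minus strand) encodes carnitine palmitoyltransferase I, which commits long-chain fatty acids to mitochondrial entry. Mcad (FBgn0035811; 3L, 7719350 to 7721472, plus strand) encodes the medium-chain acyl-CoA dehydrogenase of the first oxidation. Mtpalpha (FBgn0028479; 2L, 9573563 to 9576769, minus strand) encodes the alpha subunit of the mitochondrial trifunctional protein, and yip2 (FBgn0040064; 2L, 9915253 to 9917220, plus strand) a thiolase that ends the cycle. For electron transfer, wal (walrus; FBgn0010516; 2R, 11688569 to 11690863, minus strand) encodes the alpha subunit of the electron transfer flavoprotein. Etf-QO (FBgn0286783; 2R, 9910893 to 9913488, plus strand) encodes the oxidoreductase that passes its electrons to ubiquinone. The acyl-CoA oxidase genes Acox57D-p (FBgn0034628; 2R, 21386309 to 21389276) and Acox57D-d (FBgn0034629; 2R, 21389405 to 21392439) lie in tandem on the plus strand with 128 bases between them. The annotation places other genes over exons of whd (asRNA:CR45134 and CG11777, opposite strand), Mcad (CG7457, opposite strand, and CG32373, same strand), Mtpalpha (brwl, opposite strand) and Acox57D-d (Sdc, opposite strand). Since the strand setting of the counting is not given in the sources used here, reads of these 4 genes cannot be assigned to them with certainty.

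Library totals lay between 13718418 and 44260161 counts, and no 2 replicates agreed within sampling noise. The tissue labels were checked against marker genes. The summed level of 5 progenitor markers was 1615 to 2590 CPM (read counts scaled to a common library size) in sorted cells and 39.9 to 89.7 CPM in esg-Gal4 whole guts, while 7 visceral muscle markers summed to 7.45 to 27.8 CPM in sorted cells. The 3 detected enterocyte markers of 4 listed summed to 482 to 675 CPM in sorted cells and 773 to 1099 CPM in whole guts. Sums of 6 enteroendocrine markers overlapped, at 111 to 447 CPM in sorted cells and 220 to 348 CPM in whole guts. In sorted cells, transposable elements took 0.204%, 0.168%, 0.121% and 0.220% of counts in unmated libraries 1 to 4. In mated sorted libraries they took 0.0927% to 0.100%, so every unmated library lay above every mated one. Unmated libraries 1 and 4 held the highest shares, without a clear break from library 2. Calls of the 8 genes in sorted cells, and counts of calls, are given also without unmated libraries 1 and 4, a choice made after the data had been seen. EcR itself stood at 14.7, 12.5, 12.5 and 11.8 CPM in the unmated libraries labelled EcR RNAi and at 7.17, 9.47, 7.43 and 8.23 CPM in unmated controls. In unmated guts the RNAi target thus goes against the label, with more of its transcript under EcR RNAi and no overlap (log2 fold change 0.67, adjusted p = 0.00125). In mated guts it was at 8.22 to 11.02 CPM under that label and 7.24 to 9.45 CPM in controls, with overlap and no call (0.21, adjusted p = 0.340). A lower level was thus seen in neither state, and those libraries are named by their label throughout.

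Levels are given as CPM scaled within each table by the trimmed mean of M values (TMM), so levels from different tables are on separately set scales. Divided by exonic length, Mcad had the highest mean level of the 8 genes in every group, from 213 CPM per kb in mated progenitors to 510 CPM per kb in unmated Actin-Gal4 guts. In unmated esg-Gal4 whole guts Mcad was followed by yip2 (141 CPM per kb), wal (122), whd (98.3), Acox57D-p (84.4), Acox57D-d (71.1), Mtpalpha (64.1) and Etf-QO (48.4). In unmated progenitors both oxidases came last, at 7.75 CPM per kb for Acox57D-p and 7.99 for Acox57D-d, below Etf-QO at 42.0.

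Across the 8 groups the genes differed in how far their level ranged. The mean CPM of Acox57D-p, Acox57D-d and whd spanned 20.04-fold, 14.4-fold and 9.52-fold between the lowest and the highest group. That of Mcad spanned 2.39-fold, and those of Mtpalpha, Etf-QO, wal and yip2 between 1.34-fold and 1.72-fold. The spread between replicates was also largest for whd, with coefficients of variation between 12.3% and 42.2%, against 1.83% to 8.13% for Mtpalpha.

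The order of group means for whd was unmated Actin-Gal4 guts (870 ± 367 CPM; SD, n = 4 here and below), unmated guts labelled EcR RNAi (707 ± 234), mated esg-Gal4 guts (664 ± 218), mated Actin-Gal4 guts (355 ± 120), unmated esg-Gal4 guts (312 ± 53.8) and mated guts labelled EcR RNAi (286 ± 77.8). Each of these neighbours overlapped in range. Progenitors lay below them all without overlap, at 143 ± 17.7 CPM unmated and 91.3 ± 13.1 CPM mated. For Mcad the order ran from unmated Actin-Gal4 guts (745 ± 99.2 CPM) over mated esg-Gal4 guts (558 ± 114) and unmated guts labelled EcR RNAi (550 ± 45.0) to the other 5 groups, which lay between 312 and 387 CPM. Those 5 lay in a row of overlapping neighbours, and the gap above them was the only break in the order of Mcad.

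**Figure D1:**
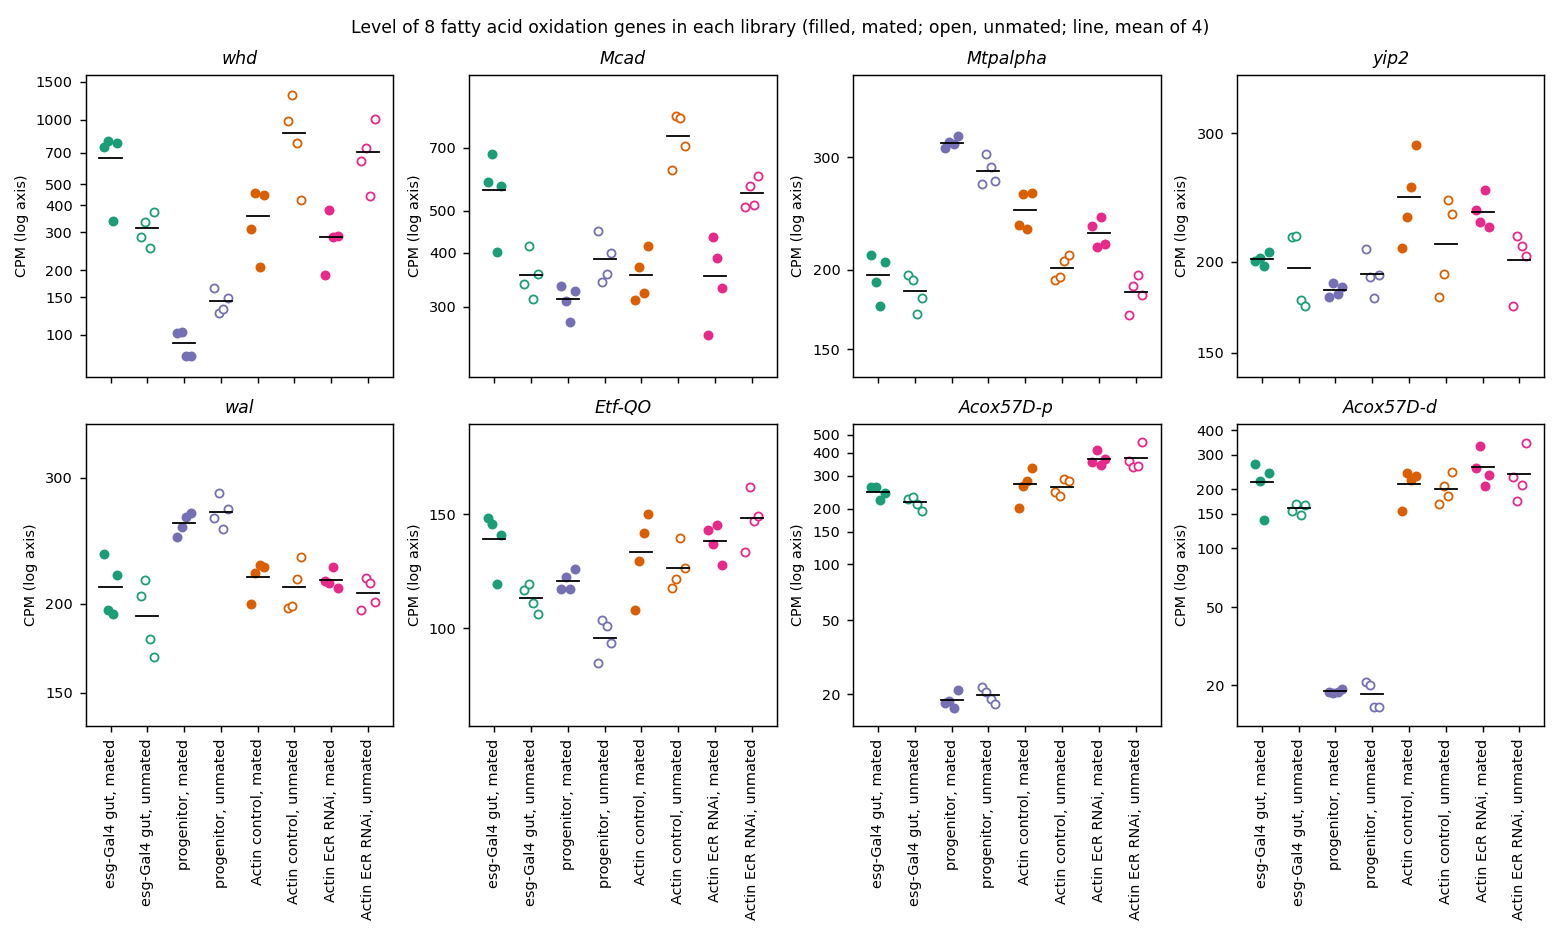
Level of each of the 8 genes in 32 libraries (vertical log axis, CPM scaled within each table; filled points mated, open points unmated, line the mean of 4 libraries). whd and Mcad are higher in mated than unmated esg-Gal4 guts but lower in mated than unmated libraries of the other 3 materials, and both oxidase genes sit near 20 CPM in sorted progenitors against 139 CPM or more elsewhere.

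The first comparison asked what mating changed in esg-Gal4 whole guts. Transcripts of whd, the gate to mitochondrial import, stood at 745, 793, 339 and 780 CPM in mated guts and at 286, 336, 252 and 374 CPM in unmated guts. Mated library 3 lay inside the unmated range, and the other 3 mated libraries lay far above it. The log2 fold change was 1.09 (SE 0.26, adjusted p = 0.0486), so whd rose about 2.13-fold, a call close to the threshold. It was lost with either other scaling of the libraries, with no filter on low counts, and when any 1 library other than mated library 3 was left out (adjusted p between 0.101 and 0.168).

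Mcad showed the same division of libraries, with 584, 676, 402 and 571 CPM in mated guts against 338, 414, 313 and 356 CPM in unmated guts. The difference of 0.65 on the log2 scale (SE 0.16, adjusted p = 0.0594) missed the threshold in edgeR and passed it in DESeq2 (adjusted p = 0.00552) and without mated library 3 (adjusted p = 0.00892). For Etf-QO every mated library (148, 145, 117 and 139 CPM) was above every unmated one (114, 117, 109 and 105 CPM), though without a call (log2 fold change 0.30, SE 0.10, adjusted p = 0.164). For Acox57D-d the difference was 0.44 (SE 0.18, adjusted p = 0.255), and it passed only without mated library 3, the lowest mated library, at 139 CPM (adjusted p = 0.0139).

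In whole guts 1 of the 8 genes was called, and it was higher, beside 4.26% of all 8833 genes (2.23% higher and 2.03% lower). All 8 fold changes were positive, with a median log2 fold change of 0.25 against 0.02 over all genes; for yip2 (0.04, SE 0.11) the sign turned with upper quartile scaling. Mtpalpha (0.08, SE 0.10), wal (0.14, SE 0.12) and Acox57D-p (0.19, SE 0.10) were not called. Mated and unmated guts also differed in other tissue: 7 visceral muscle markers summed to 926 to 1256 CPM in mated and 1968 to 2128 CPM in unmated guts. The 10 most abundant genes took 10.4% to 12.02% of counts in mated and 21.3% to 23.4% in unmated guts. The part of these differences in the results was not tested.

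**Figure D2:**
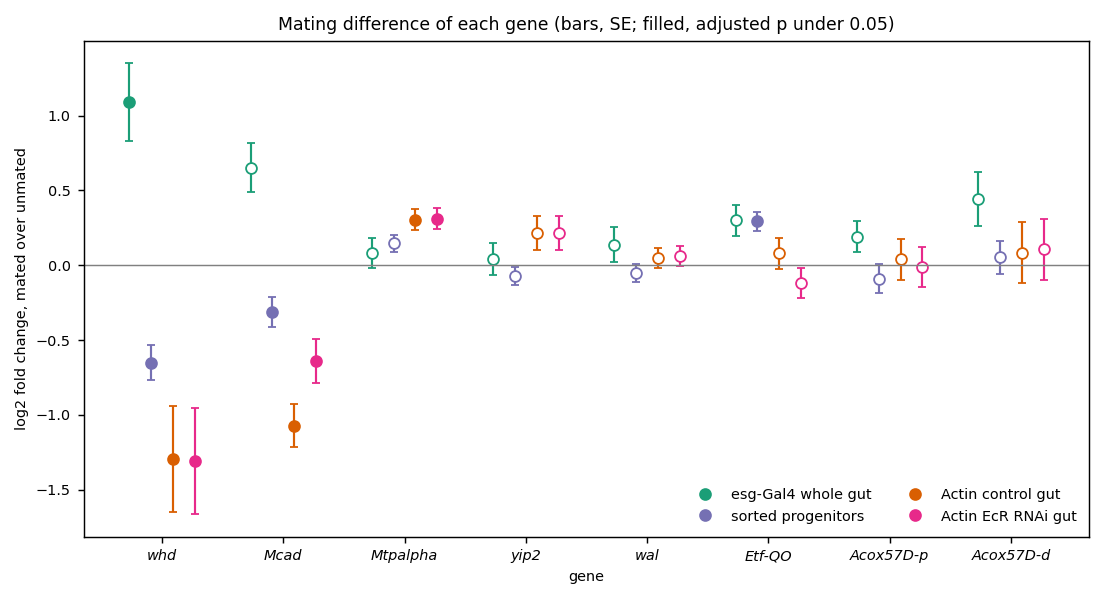
Log2 fold change of mated over unmated libraries for each gene in the 4 materials (bars, SE; filled points, adjusted p under 0.05 by edgeR; n = 4 against 4 libraries). whd lies at 1.09 in esg-Gal4 whole guts and between -0.65 and -1.31 in the other 3 materials, and Mcad at 0.65 against -0.31 to -1.07.

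In sorted progenitors whd and Mcad went the other way with mating. The whd level was 102, 103, 79.9 and 80.1 CPM in the mated libraries, all of them below the 166, 127, 132 and 149 CPM of the unmated ones. It fell by 0.65 on the log2 scale (SE 0.12, adjusted p = 0.00549), and this call was kept without unmated libraries 1 and 4 (adjusted p = 0.0361). Mcad stood at 335, 310, 277 and 326 CPM in mated libraries, again below the 450, 343, 358 and 399 CPM of unmated ones, and fell by 0.31 (SE 0.10, adjusted p = 0.0325). Libraries 1 and 4 held its 2 highest levels; without them its log2 fold change was -0.18 (adjusted p = 0.184), and the call was also lost without mated library 2, 3 or 4 or unmated library 1 or 4 alone (adjusted p between 0.0548 and 0.0839).

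Etf-QO, the last carrier before ubiquinone, rose in progenitors, from 88.3, 103, 101 and 94.8 CPM in unmated to 115, 120, 115 and 124 CPM in mated libraries. The log2 fold change was 0.29 (SE 0.06, adjusted p = 0.00968), and it was 0.21 (adjusted p = 0.0543) without unmated libraries 1 and 4. Mated libraries held 310, 317, 314 and 324 CPM of Mtpalpha and unmated libraries 272, 304, 290 and 275 CPM, apart but not called (log2 fold change 0.15, SE 0.06, adjusted p = 0.0654). It was called by DESeq2 (adjusted p = 0.0445), with upper quartile scaling (0.0398) and with no filter (0.0498), and was at 0.08 (adjusted p = 0.364) without unmated libraries 1 and 4. The remaining 4 genes had log2 fold changes between -0.09 and 0.05.

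Thus 3 of the 8 genes were called in progenitors, 1 higher and 2 lower, where 40.2% of all 9025 genes were called (19.1% higher and 21.1% lower), so the count is near the background. Without unmated libraries 1 and 4, whd alone of the 8 was called, beside 1302 of 9117 genes (14.3%). Marker sums differed as well. The 3 detected enterocyte markers of 4 listed summed to 482 to 500 CPM in mated and 586 to 675 CPM in unmated progenitors. The 5 progenitor markers summed to 2014 to 2590 CPM in mated and 1615 to 2003 CPM in unmated progenitors. Singly, these 5 went different ways, with 2 called higher, 1 called lower and a median log2 fold change of 0.05. The part of the markers in the lower whd and Mcad levels was not tested.

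The difference between the mating responses of progenitors and whole guts was tested directly in 1 fit of both tables. For whd it was -1.70 on the log2 scale (SE 0.31, adjusted p = 0.00208) and for Mcad -0.93 (SE 0.20, adjusted p = 0.00733). Both were called under each alternative run, without unmated progenitor libraries 1 and 4 included (-1.56, adjusted p = 0.0141, and -0.79, adjusted p = 0.0460). These were 2 of the 8 genes, both lower, beside 21.3% of 9448 genes (9.06% higher and 12.2% lower), and the remaining 6 differences lay between -0.35 and 0.10. Acox57D-d (-0.35, SE 0.22, adjusted p = 0.260) was called only without mated whole gut library 3 (adjusted p = 0.0272).

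In Actin-Gal4 guts, which are whole guts like those of the first comparison, Mcad and whd were lower after mating. Mcad stood at 311, 370, 323 and 414 CPM in mated guts, with no overlap with the 621, 828, 822 and 708 CPM of unmated guts. It fell by 1.07 on the log2 scale (SE 0.15, adjusted p = 0.00213). By adjusted p it ranked 7 among 9036 genes, with tied genes sharing the smallest rank. The whd level was 309, 458, 206 and 448 CPM in mated and 983, 1296, 779 and 422 CPM in unmated guts; unmated library 4 lay among the mated ones. Its fall of 1.29 (SE 0.35, adjusted p = 0.0431) was called, but not when only the 2 groups compared were fitted (adjusted p = 0.106). Leaving out 1 library ended the call in 10 of 16 cases (adjusted p between 0.0537 and 0.120).

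Mtpalpha rose in Actin-Gal4 guts, from 192, 195, 206 and 211 CPM in unmated to 235, 263, 232 and 264 CPM in mated libraries (log2 fold change 0.31, SE 0.07, adjusted p = 0.0180). It was not called with only the 2 groups in the fit (adjusted p = 0.0695), nor without mated library 2 or unmated library 1 or 2 (0.0539 to 0.0627). The thiolase gene yip2 differed by 0.21 on that scale (SE 0.11, adjusted p = 0.269), and wal, Etf-QO and both oxidase genes lay between 0.04 and 0.08. In all, 3 of 8 genes were called, 1 higher and 2 lower, beside 6.87% of 9036 genes (2.95% higher and 3.92% lower). Visceral muscle markers overlapped between these groups, at 2011 to 3348 CPM in mated and 1858 to 2810 CPM in unmated guts, as did 4 Malpighian tubule markers (28.7 to 113 against 23.6 to 69.0 CPM) and 5 detected fat body markers of 6 listed (22.6 to 120 against 7.27 to 70.6 CPM). The 3 Malpighian tubule and 3 fat body markers that passed the filter all had positive log2 fold changes, with medians of 1.58 and 1.34 and no call. All 6 enteroendocrine markers had negative ones (median -0.25, 1 called), with sums of 239 to 327 CPM in mated and 318 to 353 CPM in unmated guts. Their part in the results was not tested.

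Guts labelled EcR RNAi showed a mating response of the same 3 genes. The whd level was 190, 380, 284 and 289 CPM in mated and 643, 737, 442 and 1005 CPM in unmated guts, here without overlap. It fell by 1.31 (SE 0.35, adjusted p = 0.0305), a call lost when any 1 of 6 libraries was left out (adjusted p between 0.0641 and 0.0912). Mcad fell by 0.64 (SE 0.15, adjusted p = 0.0128), from 511, 572, 515 and 604 CPM in unmated to 258, 436, 389 and 332 CPM in mated guts. These Mcad ranges were also apart. Mtpalpha rose by 0.31 (SE 0.07, adjusted p = 0.0121), from 170, 188, 196 and 182 CPM to 234, 217, 242 and 220 CPM; without unmated library 1 its adjusted p was 0.0507. The background was 10.8% of 9036 genes (5.37% higher and 5.41% lower), and the other 5 genes, at log2 fold changes between -0.12 and 0.22, were not called. All 7 visceral muscle markers had positive log2 fold changes (median 0.34, 1 called), with sums of 1775 to 2659 CPM in mated and 1262 to 1823 CPM in unmated guts. Their part in these results was not tested.

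**Figure D3:**
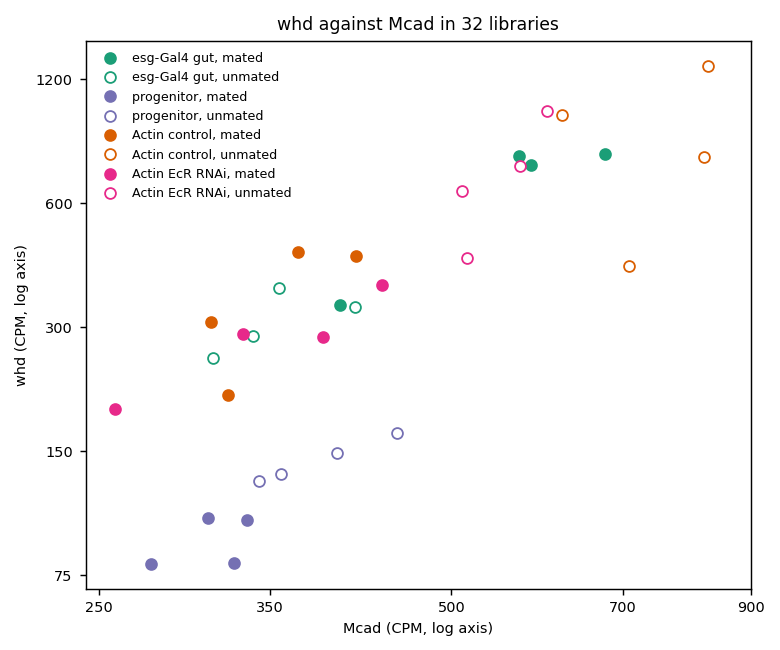
Level of whd against Mcad in 32 libraries (both axes log, CPM scaled within each table; filled points mated, open points unmated). Mated esg-Gal4 guts lie mostly above and to the right of unmated ones, while mated libraries of the other materials lie mostly below and to the left of unmated ones (unmated Actin-Gal4 library 4 has its whd level among the mated ones), and progenitors hold less whd at a given Mcad level.

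Whether EcR RNAi altered the mating response was tested as an interaction. None of the 8 genes was called by edgeR or by DESeq2, and none had an unadjusted p under 0.05. The background was 0% of 9036 genes by edgeR, with 727 genes at an unadjusted p under 0.05 and 1 gene called by DESeq2. The estimate for Mcad was 0.43 (SE 0.20, 95% interval -0.0027 to 0.87, adjusted p = 0.621), that is, a smaller fall with mating in guts labelled EcR RNAi. For whd it was -0.01 with an interval from -1.07 to 1.04, so a difference of either sign up to about that size was not detectable. For Mtpalpha it was 0.01 (interval -0.20 to 0.21).

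In the direct comparison of guts labelled EcR RNAi with controls, the peroxisomal oxidase gene Acox57D-p was higher. Unmated guts labelled EcR RNAi held 359, 334, 339 and 457 CPM, against 246, 235, 290 and 280 CPM in controls, with no overlap. The log2 fold change was 0.51 (SE 0.14, adjusted p = 0.0221), and the call was lost without control library 1 or 2 or without RNAi library 4 (adjusted p between 0.0545 and 0.0748). In mated guts the levels were 354, 414, 342 and 369 CPM against 202, 264, 280 and 332 CPM, again apart. That log2 fold change of 0.46 (SE 0.14) had an adjusted p of 0.0503 in edgeR. It was called by DESeq2 (0.0167), with upper quartile scaling (0.0341) and without mated control library 4 or unmated RNAi library 4.

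Mcad was lower in unmated guts labelled EcR RNAi than in unmated controls, with the levels given above and no overlap, but the difference of -0.44 (SE 0.15, adjusted p = 0.0548) missed the threshold. It passed by DESeq2, with upper quartile scaling, with a minimum count of 50 and with only the 2 groups in the fit. In mated guts it was -0.00335 (SE 0.15). Acox57D-d, the neighbour of Acox57D-p, had log2 fold changes of 0.26 (SE 0.20, adjusted p = 0.430) in unmated and 0.28 (SE 0.20, adjusted p = 0.515) in mated guts. Etf-QO had 0.25 (SE 0.10, adjusted p = 0.101) in unmated guts.

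Between the labels, 1 of the 8 genes was called in unmated guts, as higher, beside 15.2% of 9036 genes (7.95% higher and 7.24% lower). In mated guts none was called, beside 8.52% (3.53% higher and 4.99% lower). DESeq2 called 1 of the 8 in mated guts, Acox57D-p, beside 11.2% of 9036 genes. These comparisons share their libraries with the mating comparisons of the same table. Other tissue differed between the labels: 4 Malpighian tubule markers summed to 4.76 to 17.7 CPM in libraries labelled EcR RNAi and 23.6 to 113 CPM in controls. Visceral muscle markers in unmated guts summed to 1262 to 1823 against 1858 to 2810 CPM. Their part in the Acox57D-p difference was not tested.

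The opposite mating responses of esg-Gal4 whole guts and Actin-Gal4 guts were compared in a joint fit that was added after the data had been seen. The Actin-Gal4 response minus the esg-Gal4 response was -2.37 for whd (SE 0.48, adjusted p = 0.00230) and -1.71 for Mcad (SE 0.22, adjusted p = 2.59e-05). Mcad ranked 41 of 9285 genes by adjusted p, with tied genes sharing the smallest rank. Both were called under each of the alternatives run for this comparison, and 2 of 8 genes, both lower, stand beside 11.6% of all genes (4.77% higher and 6.82% lower). The remaining 6 differences lay between -0.34 and 0.23, without a call. Markers of other tissue differed too: 6 of 7 visceral muscle markers were called higher in this difference (median 0.75), as was 1 of 4 Malpighian tubule markers (median 2.86), and their part in the whd and Mcad differences was not tested. Driver and count table differ between these materials. A temperature before mating is given only for the Actin-Gal4 flies, and the labels name no sequencing run. Effects of driver, table, temperature and run cannot be told apart.

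Levels in progenitors were compared with those in esg-Gal4 whole guts in the joint fit. Sorting and count table go together with the material there and cannot be told apart from it. The labels name no sequencing run. Mated progenitors held 18.6 ± 1.74 CPM of Acox57D-p and unmated ones 19.8 ± 1.84 CPM, against 246 ± 18.5 and 216 ± 16.0 CPM in mated and unmated whole guts. Acox57D-d was at 18.7 ± 0.344 and 17.99 ± 2.81 CPM against 217 ± 55.8 and 160 ± 10.01 CPM. Both oxidases were thus far lower in progenitors, with log2 differences of -4.13 (SE 0.08, adjusted p = 2.40e-15) and -3.89 (SE 0.12, adjusted p = 6.97e-14). The shuttle gene whd was lower by a log2 difference of -2.54 (SE 0.16, adjusted p = 2.48e-10).

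The remaining mitochondrial genes differed less. Log2 differences were -0.90 (SE 0.10) for Mcad, -0.76 (SE 0.06) for Etf-QO, -0.63 (SE 0.06) for yip2, -0.15 (SE 0.06) for wal and 0.11 (SE 0.06, adjusted p = 0.0773) for Mtpalpha. With 7 of 8 genes called, all lower, and 87.3% of 9448 genes called (46.1% higher and 41.2% lower), a call says little here and the sizes say more. The wal call (adjusted p = 0.0359) was lost in 9 of 16 fits with 1 library left out (adjusted p between 0.0535 and 0.0839), with upper quartile scaling and with no filter. Without unmated progenitor libraries 1 and 4 wal was not called (-0.14, adjusted p = 0.101), Mtpalpha was called higher (0.15, adjusted p = 0.0405), and the other 6 genes were called lower. Of all genes 8179 of 9484 were called in that setting (86.2%, with 4301 higher and 3878 lower). The sizes depend on scaling: the median of all genes was 0.11 with TMM and 0.66 with library totals alone. With totals alone both oxidases (-3.59 and -3.35), whd (-2.00), Mcad (-0.36) and Etf-QO (-0.20) stayed lower, while yip2 (-0.09) was not called and wal (0.40) and Mtpalpha (0.66) were higher.

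Among the 32 other genes of fatty acid oxidation, 2 were called with mating in esg-Gal4 whole guts, both higher, beside 4.26% of all genes. They were Had1 (log2 fold change 1.49, SE 0.29, adjusted p = 0.0241), listed here by its name of beta hydroxy acid dehydrogenase, without a certain role in fatty acid oxidation, and ACC (0.65, SE 0.15, adjusted p = 0.0461), the acetyl-CoA carboxylase that makes malonyl-CoA, an inhibitor of carnitine palmitoyltransferase I. The median of the 32 was 0.13, against 0.02 over all genes. The call of ACC was lost without any 1 of 7 libraries and that of Had1 without any 1 of 5.

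In progenitors 14 of the 32 were called with mating, 9 higher and 5 lower, against the 40.2% background, so the count is near it. Without unmated libraries 1 and 4, 6 of the 32 were called, 2 higher and 4 lower, beside 1302 of 9117 genes (14.3%; 417 higher and 885 lower). Of the 9 called higher with all libraries, 6 belong to the mitochondrial cycle: CG3902 (1.04, SE 0.13, adjusted p = 0.00247), CG10932, CG7461, Mtpbeta, Echs1 and Arc42. With all libraries CPT2, the inner partner of whd in the carnitine shuttle, rose by 0.23 (SE 0.07, adjusted p = 0.0354) while whd fell. Of the 3 acyl-CoA synthesis genes 2 fell, Acsl by 0.53 (SE 0.07, adjusted p = 0.00266) and pdgy by 1.01 (SE 0.20, adjusted p = 0.00763). Also lower were CG17544, a peroxisomal acyl-CoA oxidase gene by annotation, by 0.71 (SE 0.10, adjusted p = 0.00266), Sirt1 and Had1. Of the 32, single values without unmated libraries 1 and 4 were obtained for CG3902, Acsl and CG17544, which kept their calls. For CPT2 and the others they were not.

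In Actin-Gal4 guts 2 of the 32 were called with mating, beside 6.87% of all genes: CG3902 higher (0.85, SE 0.23, adjusted p = 0.0413) and AMPKalpha, the catalytic subunit of AMP-activated kinase, lower (-0.32, SE 0.09, adjusted p = 0.0452); each call was lost without any 1 of 11 libraries and with only the 2 groups in the fit. In guts labelled EcR RNAi 5 were called, beside 10.8%: bgm, an acyl-CoA synthetase gene, rose by 0.83 (SE 0.17, adjusted p = 0.00843) and Pmp70 by 0.66, while Had1 fell by 1.11 (SE 0.21, adjusted p = 0.00621), AMPKalpha by 0.40 and ACC by 0.44. Of the label comparisons, 3 of 32 were called in unmated guts, 1 higher and 2 lower, beside 15.2% of all genes. In mated guts 2 were called, 1 higher and 1 lower, beside 8.52%. ACC was higher under the EcR RNAi label in unmated guts (log2 fold change 0.88, adjusted p = 4.18e-04), whichever library was left out. ScpX was lower there (-0.46, adjusted p = 0.0368), and Dci was higher in mated guts (0.55, adjusted p = 0.0467). These 2 calls were lost without any 1 of 6 and any 1 of 12 libraries, and with only the 2 groups in the fit. CG17544 was lower in libraries labelled EcR RNAi in both states, with log2 fold changes of -0.48 (SE 0.10, adjusted p = 0.00613) and -0.50 (SE 0.10, adjusted p = 0.00740). In the interaction none of the 32 was called by edgeR or DESeq2, with 2 at an unadjusted p under 0.05.

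**Figure D4:**
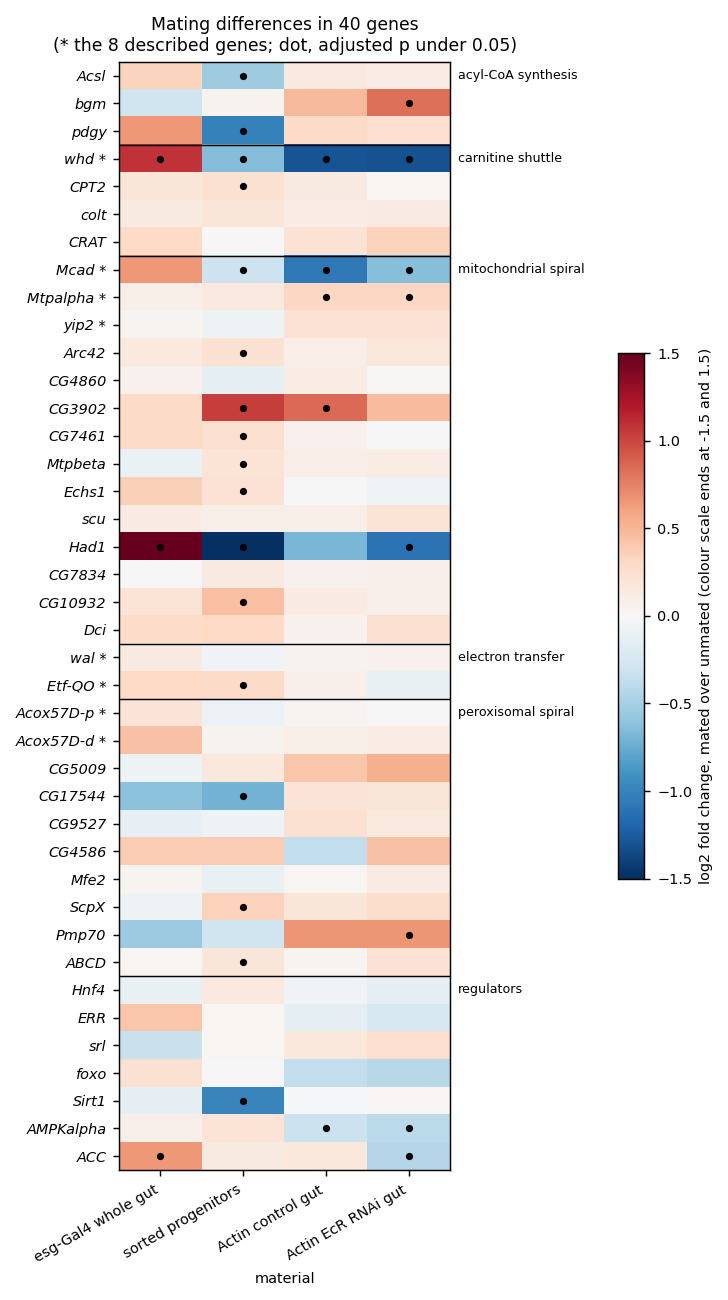
Log2 fold change of mated over unmated libraries for 40 genes of fatty acid oxidation in 4 materials (colour scale ends at -1.5 and 1.5; asterisk, the 8 genes described; dot, adjusted p under 0.05 by edgeR). whd changes sign between esg-Gal4 whole guts (1.09) and the other materials, and 14 of the 32 other genes were called in progenitors, where 40.2% of all genes were.

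Between progenitors and esg-Gal4 whole guts, 30 of the 32 were called, 23 lower and 7 higher in progenitors, beside 87.3% of all genes (41.2% lower and 46.1% higher). All 3 acyl-CoA synthesis genes, all 3 other carnitine shuttle genes and 7 of 8 peroxisomal genes were lower, with group medians of -2.90, -2.10 and -1.95 on the log2 scale. CG9527, an acyl-CoA oxidase gene by annotation, had a log2 difference of -4.46 (SE 0.11, adjusted p = 1.04e-14), Pmp70, a peroxisomal transporter gene, -3.51 (SE 0.10) and Mfe2, the peroxisomal multifunctional enzyme gene, -2.21 (SE 0.06). The 11 genes of the mitochondrial cycle had a median of -0.17, with 6 lower and 4 higher. With library totals alone 16 of the 32 were lower and 10 higher, beside 89.9% of 9448 genes (2896 lower and 5597 higher).

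Likeness of patterns was described over all 32 libraries after each gene's mean within its table was subtracted. Differences between the means of the tables are thus removed. Differences within a table, such as those with mating and with the EcR RNAi label, remain. Of 28 pairs among the 8 genes the highest Pearson r was 0.89, for whd with Mcad (Spearman 0.87). Centred on group means instead, which leaves only the spread between replicates, r was 0.69 for this pair. By the same group-centred measure wal with Mtpalpha reached 0.72, wal with yip2 0.71 and Acox57D-p with Acox57D-d 0.72. Over the 28 pairs r then ranged from -0.17 to 0.72 with a median of 0.39. On the table-centred measure whd and Mtpalpha were opposed (r = -0.44).

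Among 8056 genes tested in all 3 tables, the closest to whd was Thor (r = 0.94), which encodes the translation inhibitor 4E-BP, followed by Mcad. Mcad was closest to whd and then to CG6770 (0.88). Mtpalpha was closest to Fum1, a fumarase gene (0.88), and ATPsynbeta, a subunit of ATP synthase (0.85). The genes nearest to yip2 were ND-24, a complex I subunit (0.79), and Chchd3 (0.77). For wal they were scu, a hydroxyacyl-CoA dehydrogenase gene (0.85), and CG8993 (0.82), and for Etf-QO Aldh, an aldehyde dehydrogenase gene (0.84), and CG7461 (0.83). Acox57D-p was closest to Cyp9f3, a cytochrome P450 gene (0.84), and Ect3 (0.81), and Acox57D-d to its neighbour Acox57D-p (0.70) and to ScsbetaA, a succinyl-CoA synthetase subunit gene (0.67). By Spearman correlation several of these orders changed. For Mcad, whd then ranked 3 and CG6770 ranked 4, and for whd, Mcad ranked 4. ATPsynbeta ranked 10 for Mtpalpha, ND-24 ranked 6 for yip2 and Ect3 ranked 8 for Acox57D-p. Thor, Fum1, scu, Aldh and Acox57D-p stayed first for the same genes.

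**Figure D5:**
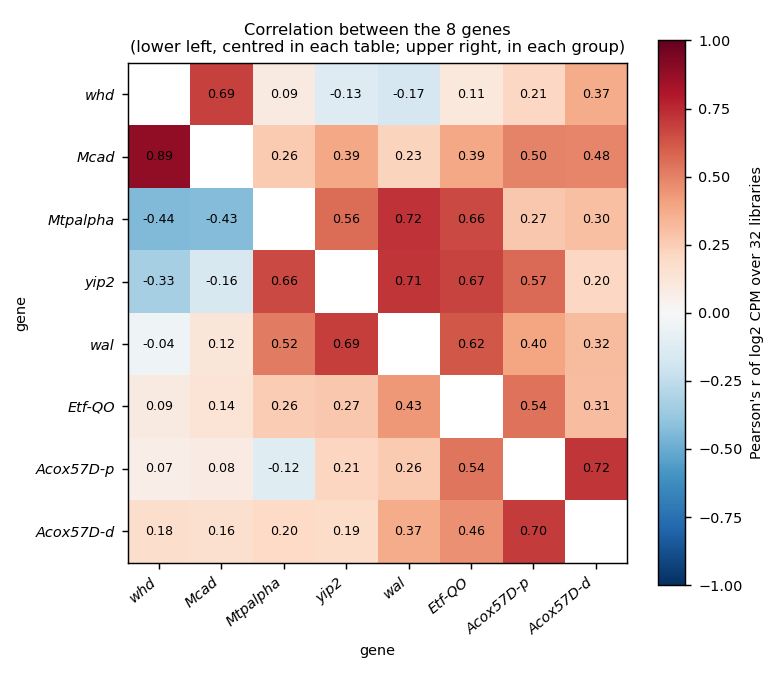
Pearson's r of log2 CPM between the 8 genes over 32 libraries, with means subtracted within each table (lower left) or within each group (upper right). whd and Mcad form the closest pair in the lower left, at 0.89, and reach 0.69 in the upper right, where wal with Mtpalpha is highest at 0.72, and Mtpalpha, yip2, wal and Etf-QO are closer to one another than to whd in the upper right.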

How the data were processed

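Gene symbols and counts per gene were taken from the deposited tables, which the authors made with STAR, HTSeq and DESeq2 on BDGP6 and dm6, per the submitters' processing notes; neither versions nor a strand setting is given there. Of 47 samples 32 were used. The 15 Myo1A samples were not analysed here, because their table repeats the 8 whole gut columns value for value, and 16 further columns of the tables were not used. Transposable elements (0.0312% to 0.220% of counts) were left out. The 8 genes, the lists, markers and tests were chosen with earlier results of these data known.

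Counts were fitted in R 4.3.3 with edgeR 4.0.16 (filterByExpr, minimum count 10 and total 15; TMM; robust quasi-likelihood F test) with Benjamini-Hochberg adjustment over every gene tested. Calls, and the words rose and fell, need an adjusted p under 0.05. SE was derived from the fold change and F, and 95% intervals from SE and the t distribution. Whole guts and progenitors were fitted alone, the 16 Actin-Gal4 libraries together, and 2 tables jointly for differences between materials. The rule named all 8 genes, in each comparison the 3 called genes of the list of 32 with the smallest adjusted p, and the 2 genes most like each of the 8; further genes of the list were named after their values were seen. CPM uses TMM-scaled totals within a table; likeness used log2 CPM with a prior count of 2. Alternatives were DESeq2 1.42.0, other scalings, filters, a replicate block, only the compared groups, and each library left out. The fits were tested on simulated counts with known changes. Coordinates are 1-based and were matched by gene identifier in BDGP6.54.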

Additional observations from a re-analysis of the deposited data

Results flagged for a closer look

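In mated esg-Gal4 whole guts the whd level of library 3 lay far below the other 3, with a gap to the nearest of them of 0.895 of the group's whole range, above the critical value for 4 samples. This was 1 of 72 groups examined (8 genes and EcR in 8 groups), and chance marks about 1 in 20. All 8 genes were at their lowest mated level in that library, among them Mcad at 402 CPM and Acox57D-d at 139 CPM.

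The mating responses of progenitors and esg-Gal4 whole guts differed by the test of the difference itself for whd (-1.70) and Mcad (-0.93), given above. Of the other genes of fatty acid oxidation named there, the acyl-CoA synthesis genes Acsl (-0.82, SE 0.17, adjusted p = 0.00495) and pdgy (-1.62, SE 0.28, adjusted p = 0.00141) differed in the same direction. Had1 differed by -3.43 (SE 0.49, adjusted p = 4.60e-04), with means in progenitors of 1.13 CPM mated and 4.49 CPM unmated.

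Actin-Gal4 guts and esg-Gal4 whole guts differed in their mating response for whd (-2.37) and Mcad (-1.71). The difference was -2.16 for Had1 (SE 0.36, adjusted p = 4.18e-04), 0.83 for CG17544 (SE 0.18, adjusted p = 0.00377) and 1.21 for Pmp70 (SE 0.25, adjusted p = 0.00273).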

How the results depend on the processing

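Of the 8 genes, the number called with mating in whole guts was 1, against 2 by DESeq2, 0 with DESeq2's size factors in edgeR, upper quartile scaling or no filter, and 0 to 3 with 1 library left out. The count of all genes there was 376, against 678 by DESeq2 and 195 to 510 with 1 library left out, and upper quartile scaling moved the split from 197 higher and 179 lower to 143 and 221. In progenitors, leaving out unmated libraries 1 and 4, which was chosen after seeing the data, left 1 of the 8 and 1302 of all genes (3627 before, 2248 to 4304 with 1 library left out). In Actin-Gal4 guts the counts of 3 and 621 became 1 and 266 with only the 2 groups in the fit, 1048 genes by DESeq2, and 1 to 3 and 288 to 679 with 1 library left out. In guts labelled EcR RNAi they were 3 and 974, against 1 to 3 and 449 to 1078 with 1 library left out, and upper quartile scaling moved the split from 485 and 489 to 727 and 400. Between labels in unmated guts 1 of the 8, beside 15.2% of all genes, became 2 by DESeq2 (17.8%) and with a minimum count of 50 (16.9%). It also became 2 with the replicate block (17.6%), only the 2 groups (11.9%) and upper quartile scaling (14.9%). That scaling moved the split of all genes from 718 and 654 to 567 and 781. With 1 library left out, 0 to 2 of the 8 were called, beside 919 to 1431 of all genes. In mated guts 0 became 1 by DESeq2 (1008 of all genes), upper quartile scaling (767) or the replicate block (889), and 0 to 1 with 1 library left out. There all genes went from 770 to 484 with only the 2 groups and 471 to 817 with 1 library left out. The interaction gave 0 genes and 1 by DESeq2. For progenitors minus whole guts, leaving out the same 2 libraries kept the count of 2 and moved all genes from 2008 to 692. For progenitors against whole guts, library totals alone, added after seeing the data, moved the split from 4353 and 3896 to 5597 and 2896. Of the 32 other genes the called number ranged over alternatives from 0 to 5 in whole guts (2 as reported), 6 to 16 in progenitors (14), 0 to 5 in Actin-Gal4 guts (2), 3 to 8 in guts labelled EcR RNAi (5), 2 to 5 and 1 to 4 between labels (3 and 2) and 3 to 5 for Actin-Gal4 minus esg-Gal4 guts (3). With no single library left out, the share of all genes called was 2.97% to 7.68% in whole guts and 14.3% to 44.7% in progenitors. It was 3.02% to 11.6% in Actin-Gal4 guts and 8.55% to 14.7% in guts labelled EcR RNAi. Between labels it was 11.9% to 17.8% in unmated and 5.54% to 11.2% in mated guts. For Actin-Gal4 minus esg-Gal4 guts it was 10.5% to 14.2%.

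Values that changed sign were not called in the setting reported, except wal in progenitors against whole guts (-0.15, and 0.40 with library totals alone). With mating these were yip2 in whole guts (-0.027 with upper quartile scaling, -0.041 to 0.080 with 1 library left out), Acox57D-d in progenitors (-0.023 to 0.13), Acox57D-p in Actin-Gal4 guts (-0.077 to 0.15) and, in guts labelled EcR RNAi, Acox57D-d (-0.032 to 0.33) and Acox57D-p (0.037 with upper quartile scaling, 0.00028 with the block, -0.067 to 0.10). Between labels they were yip2 (-0.15 to 0.00099) and wal (-0.061 to 0.021) in unmated guts, and Mcad (-0.11 to 0.13), yip2 (-0.13 to 0.019), wal (-0.048 to 0.013) and Etf-QO (-0.020 to 0.13) in mated guts. In the interaction they were whd (0.026 with upper quartile scaling, 0.040 with the block, -0.26 to 0.22), Mtpalpha (-0.027 to 0.045), yip2 (-0.062 to 0.093), wal (-0.027 to 0.055), Acox57D-p (-0.16 to 0.073) and Acox57D-d (-0.11 to 0.26). For progenitors minus whole guts it was Etf-QO (-0.021 by DESeq2, -0.019 with its size factors, -0.014 with a minimum count of 50, -0.049 without unmated progenitor libraries 1 and 4, -0.030 to 0.068), and in the level comparison Mtpalpha (-0.021 by DESeq2 and with its size factors). Beyond the construction of each alternative the cause was not tested.

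The labels number replicates alike in the groups, but in none of the 3 tables did every same-numbered pair correlate above 0.1, so no pairing was assumed. That check does not cover likeness between differently numbered libraries. In mated Actin-Gal4 guts the mismatch of counts (chi-square per degree of freedom) was 43.8 between libraries 1 and 2 and 29.5 between 3 and 4. Across these pairs it was 100 to 213. Mated guts labelled EcR RNAi lacked this division (67.2 and 45.9, against 41.7 to 90.7 across). A shared batch was not tested. The replicate block moved the count of all genes called from 376 to 262 in whole guts, 3627 to 3817 in progenitors, 621 to 903 in Actin-Gal4 guts and 974 to 1281 in guts labelled EcR RNAi. Blocks were set within each material, so no block was fitted for the level of progenitors against whole guts. With 4 pools a group, whd varied by up to 42.2%, so small changes of it were not detectable, and PCR reads without molecular identifiers are not independent molecules.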

Other observations

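The other genes of the pathway with the largest mating differences had levels as follows. Had1 stood at 170, 147, 139 and 121 CPM in mated and 44.9, 86.1, 45.3 and 29.8 CPM in unmated esg-Gal4 whole guts. In Actin-Gal4 guts it was at 17.0, 17.6, 39.7 and 28.3 CPM mated and 36.4, 37.7, 45.2 and 44.6 CPM unmated, and in guts labelled EcR RNAi at 18.5 to 23.0 CPM mated and 41.2 to 45.8 CPM unmated. Its level was thus higher in mated esg-Gal4 guts and lower in mated guts of the other driver with the RNAi, as for whd, while the Actin-Gal4 control groups overlapped.

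CG3902, an acyl-CoA dehydrogenase gene by annotation, was called higher with mating in progenitors and in Actin-Gal4 guts, where Mcad fell, but not in guts labelled EcR RNAi, where Mcad fell too (log2 fold change 0.47, SE 0.23, adjusted p = 0.210). It stood at 283, 276, 239 and 267 CPM in mated and 116, 147, 152 and 103 CPM in unmated progenitors, without overlap. In Actin-Gal4 guts it was at 215, 181, 366 and 256 CPM mated and 115, 98.9, 170 and 182 CPM unmated, where the groups overlapped by 1 mated library.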
